A study of Homo sapiens with 17 samples.

Results

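*PEG10*, its neighbour *SGCE* and 8 further imprinted genes (*PEG3*, *MEST*, *PLAGL1*, *NDN*, *GRB10*, *MEG3*, *IGF2* and *DLK1*) were followed in RNA-Seq libraries of SF8628 cells. All 10 were found by symbol among the 60664 genes of the expression table. Of these, 7 reached a mean of 10 normalized counts and entered the tests, and *MEG3*, *IGF2* and *DLK1* were barely read or not read at all. The 10 genes were picked with the AZD5153 effects of these data in view, and the level of *PEG10* under AZD5153 was among the values that chose them. Effects of AZD5153 on them are therefore given as a description, without a p-value. Tests are given for changes over time, for the difference between effects and for genes outside the chosen 10. Most genes named outside the clusters of the chosen 10 were picked for a limma adjusted p under 0.05 at both times. The AZD5153 p-values of those genes are therefore a description as well. For the chosen genes, the change over time in AZD5153 and the difference between effects use AZD5153 values known at the choice. Their p-values are printed as a description only. Only the change over time in DMSO compares no AZD5153 library, but its error comes from the fit of all groups. Its DMSO values were also part of the AZD5153 effects in view. The lists of other genes were also drawn up with earlier results of these data known.

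Genomic imprinting is the expression of a gene from 1 parental copy only, set by DNA methylation laid down in the egg or the sperm and kept by zinc finger proteins that bring a repressive complex to the methylated copy. Imprinted genes lie in clusters that share a control region, and many of them act on fetal growth, the placenta, metabolism and the brain. *PEG10* came from an LTR retrotransposon: it encodes proteins that resemble Gag and Pol, made through a ribosomal frameshift, and it is needed for the placenta to form. Total counts per gene do not show which parental copy was read.

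SF8628 is an established cell line from a diffuse intrinsic pontine glioma, with the lysine-to-methionine mutation of histone H3 that marks this tumor, grown here as a monolayer in medium with serum. Cells received the vehicle DMSO or 1 µM of the bivalent BET bromodomain inhibitor AZD5153, which blocks binding of BET proteins to acetylated histones. Exposure lasted 24 or 48 hours, and each of the 4 groups had 3 replicate libraries. All groups are of this 1 cell line, and nothing in the labels says that replicates came from separate cultures, so p-values measure the spread between these libraries, which may be technical. H3K27ac profiles of the same line were not analysed here.

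Libraries held 15759148 to 27335220 reads assigned to genes, with a median of 20737337. Replicate 1 of DMSO at 24 hours stood apart, its chi-square over degrees of freedom being 16.8 and 25.6 against its replicates, where the other replicate pairs of all groups had 2.12 to 5.21, and 24-hour values of the named genes that it moved by over 0.1 on the log2 scale are given without it, here or in the closing section. Of the glial markers, *OLIG1* and *OLIG2* had no read in any library and *PDGFRA* at most 5.4 normalized counts, while *SOX2* (119 to 252), *NES* (527 to 2205), *VIM* (14454 to 28352), *CSPG4* (419 to 3133) and *GFAP* (22.8 to 57.5) were read. *CSPG4* and *NES* were lower with AZD5153, with log2 fold changes of -2.23 and -1.43 at 24 hours and -1.76 and -1.87 at 48 hours. Of the 4 neuronal markers, *STMN2* had no read, *RBFOX3* reached at most 12.96 counts and *SYT1* had 634 to 903. *SNAP25* was lower with AZD5153, with 26.7 to 57.6 counts in DMSO and 9.39 to 23.9 with AZD5153 (log2 fold changes of -1.45 and -1.36). *SYT1*, the most abundant of them, had log2 fold changes of 0.10 and 0.19. The 4 neuronal markers summed to 701 to 884 in DMSO and 745 to 922 with AZD5153. The placental markers *CGA*, *PSG1* and *CSH1* were at 0 in every library and *GCM1* reached at most 2.66 normalized counts, so the *PEG10* reads came without those of placental hormone genes. The 5 microglial markers summed to 178 to 216 in DMSO and 25.6 to 48.9 with AZD5153. Nearly all of that was *CSF1R* (176 to 211 and 23.3 to 45.6), with *AIF1* at 0 and *PTPRC*, *CD68* and *P2RY12* at 7.21 or less. The 4 endothelial markers summed to 326 to 637 and 51.1 to 69.7, mostly *PECAM1* and *VWF*, with *CDH5* at 0 and *CLDN5* at 2.68 or less. The part of any of these in the results was not tested. With bulk RNA, a change in RNA per cell and a change in the kinds of cells present cannot be told apart. Levels are normalized counts (reads divided by a size factor of the library), and differences are log2 fold changes of normalized count + 1 from 1 limma fit of 15599 genes, called at a Benjamini-Hochberg adjusted p under 0.05.

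*PEG10* (ENSG00000242265, chromosome 7 from 94656325 to 94669695, plus strand, GRCh38, GENCODE 44) was among the most abundant RNAs of the cells after AZD5153. In DMSO at 24 hours it had 17447, 15679 and 14612 normalized counts, and with AZD5153 134845, 134872 and 147224. At 48 hours the DMSO libraries had 15833, 15659.6 and 16164, and the AZD5153 libraries 126962, 125282 and 130386. Every AZD5153 library lay far above every DMSO library at both times, and the 48-hour DMSO libraries lay within the range of the 24-hour ones. The group means were 15913 ± 1432 and 138980.3 ± 7139.6 at 24 hours and 15886 ± 256 and 127543 ± 2602 at 48 hours (SD, n = 3), which is 8.73-fold and 8.03-fold, or a log2 fold change of 3.13 ± 0.06 and 3.01 ± 0.06 (SE). Leaving out replicate 1 of DMSO at 24 hours gave 3.197 at that time.

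In terms of all reads on genes, *PEG10* took 0.0751% to 0.0905% of a DMSO library and 0.598% to 0.698% of an AZD5153 library. The 95% Wilson interval of each share reached at most 0.0039 percentage points to either side, which covers counting error only. Ranked by normalized count, *PEG10* stood at places 77 to 111 in DMSO and at places 7 to 9 with AZD5153. Ranked by normalized counts per kilobase of exon, it stood at places 170 to 234 and 8 to 12. The rise in its mean, by 123068 normalized counts at 24 hours and 111658 at 48 hours, was the 4th largest of any gene in absolute counts at both times. As a fold change it was further down the order: 39th at 24 hours and 35th at 48 hours of 10961 genes whose mean reached 100 normalized counts.

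The high level of *PEG10* was held from 24 to 48 hours. In DMSO its log2 change over that time was 0.00 ± 0.06 (limma adjusted p = 0.99), and in AZD5153 -0.12 ± 0.06 (adjusted p = 0.11). The AZD5153 effect at 48 hours minus that at 24 hours was -0.12 ± 0.08 (adjusted p = 0.28), a difference that did not pass the threshold. Without replicate 1 of DMSO at 24 hours, the difference was -0.19 with an adjusted p of 0.008, and the fall within AZD5153 (-0.12) had an adjusted p of 0.0076. The same fall was also called with only the groups compared in the fit (adjusted p = 0.0017) and without replicate 3 of DMSO at 24 hours (adjusted p = 0.049), so its call depends on which libraries enter the fit.

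*SGCE* (ENSG00000127990, chromosome 7 from 94524204 to 94656572, minus strand) encodes epsilon-sarcoglycan, a membrane protein of the dystrophin-associated complex whose loss causes myoclonus dystonia. Like *PEG10* it is expressed from the paternal copy. The start sites of both genes lie head to head on opposite strands, and the annotated genes overlap by 248 bases there. In DMSO at 24 hours *SGCE* had 934, 838 and 785 normalized counts, and with AZD5153 355, 309 and 278. At 48 hours it had 941, 888 and 956 in DMSO and 393, 379 and 412 with AZD5153. Every AZD5153 library was below every DMSO library, so the pair moved in opposite directions from their common start region. The log2 fold changes of *SGCE* were -1.44 ± 0.09 at 24 hours and -1.23 ± 0.09 at 48 hours, a mean level 2.71-fold and 2.35-fold lower.

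Exons of *PEG10* and *SGCE* share 219 bases, 3.27% of the exon bases of *PEG10* and 1.05% of those of *SGCE*. Whether the counting used the strand is not given in the sources used here, so reads from those bases could have been left out or given to either gene. On the scale of normalized counts per kilobase, *PEG10* exceeded *SGCE* 52.5- to 58.4-fold in the 6 DMSO libraries. In the 6 AZD5153 libraries the ratio was 989 to 1654. Within AZD5153, *SGCE* rose from 24 to 48 hours by 0.33 ± 0.09 (limma adjusted p = 0.013), while in DMSO it had a change of 0.13 ± 0.09 (adjusted p = 0.32). That call was lost without replicate 3 of AZD5153 at 24 hours (0.25, adjusted p = 0.068) and without replicate 3 of AZD5153 at 48 hours (0.30, adjusted p = 0.056). The difference between its AZD5153 effects at both times, 0.21 ± 0.13, did not pass the threshold (adjusted p = 0.28).

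**Figure D1:**
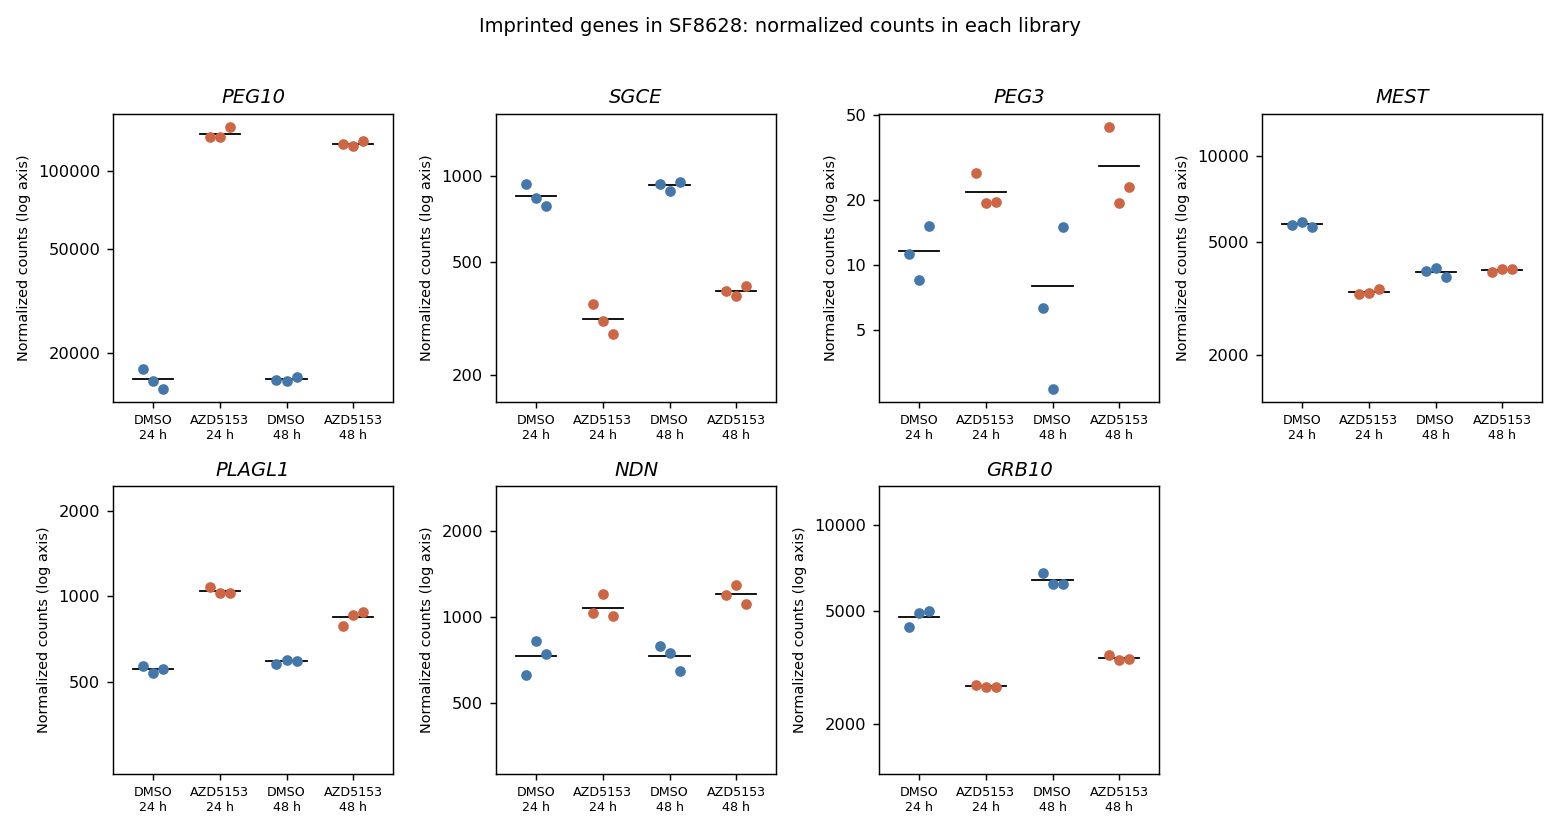
Normalized counts (log axis) of the 7 tested genes in each of the 12 libraries, DMSO in blue and AZD5153 in orange, with a line at the mean of each group of 3. *PEG10* stands at 14612 to 17447 in DMSO and 125282 to 147224 with AZD5153, *SGCE* and *GRB10* lie lower with AZD5153 at both times, and the *MEST* groups overlap at 48 hours.

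Genes around *PEG10* mostly did not share its increase. Of the 42 annotated genes other than *PEG10* that start within 1000 kb of it, a window set after values had been seen, 13 were tested, *SGCE* included. At 24 hours 1 of them was called higher and 10 lower, where 33.9% of all tested genes were called higher and 34.6% lower. At 48 hours 1 was called higher and 8 lower, against 33.1% and 33.9% of all tested genes. The gene that rose was *TFPI2*, a secreted protease inhibitor expressed from the maternal copy in placenta, 766 kb before *PEG10*. It had 1107, 1109 and 1022 normalized counts in DMSO and 2577, 2458 and 2562 with AZD5153 at 24 hours (1.23 ± 0.07, limma adjusted p = 3.6e-10), and its log2 fold change was 0.72 ± 0.07 at 48 hours (adjusted p = 2.3e-07). *PPP1R9A*, which encodes the actin-binding protein neurabin and starts 251 kb after *PEG10*, fell by 1.16 ± 0.17 at 24 hours (adjusted p = 2.1e-05) and by 1.22 ± 0.17 at 48 hours (adjusted p = 1.3e-05). Its libraries held 136 to 172 counts in DMSO and 56.3 to 83.2 with AZD5153 at 24 hours.

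*COL1A2*, a chain of type I collagen that starts 261 kb before *PEG10*, fell at 24 hours, its mean going from 15416 to 3209 normalized counts (-2.26 ± 0.05, limma adjusted p = 2e-14). Its mean at 48 hours was 22429 in DMSO and 5909 with AZD5153 (-1.92 ± 0.05, adjusted p = 1.1e-13). *CASD1*, a sialic acid acetyltransferase whose annotated span (94509219 to 94557019, plus strand) runs into that of *SGCE* on the opposite strand, had means of 671 and 676 at 24 hours and 671 and 628 at 48 hours, and its log2 fold changes of 0.01 ± 0.08 (adjusted p = 0.92) and -0.10 ± 0.08 (adjusted p = 0.27) did not pass the threshold. *COL1A2* and *CASD1* were singled out after their values were seen. *DLX5*, another gene of the region described as imprinted, had no read in any library.

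**Figure D2:**
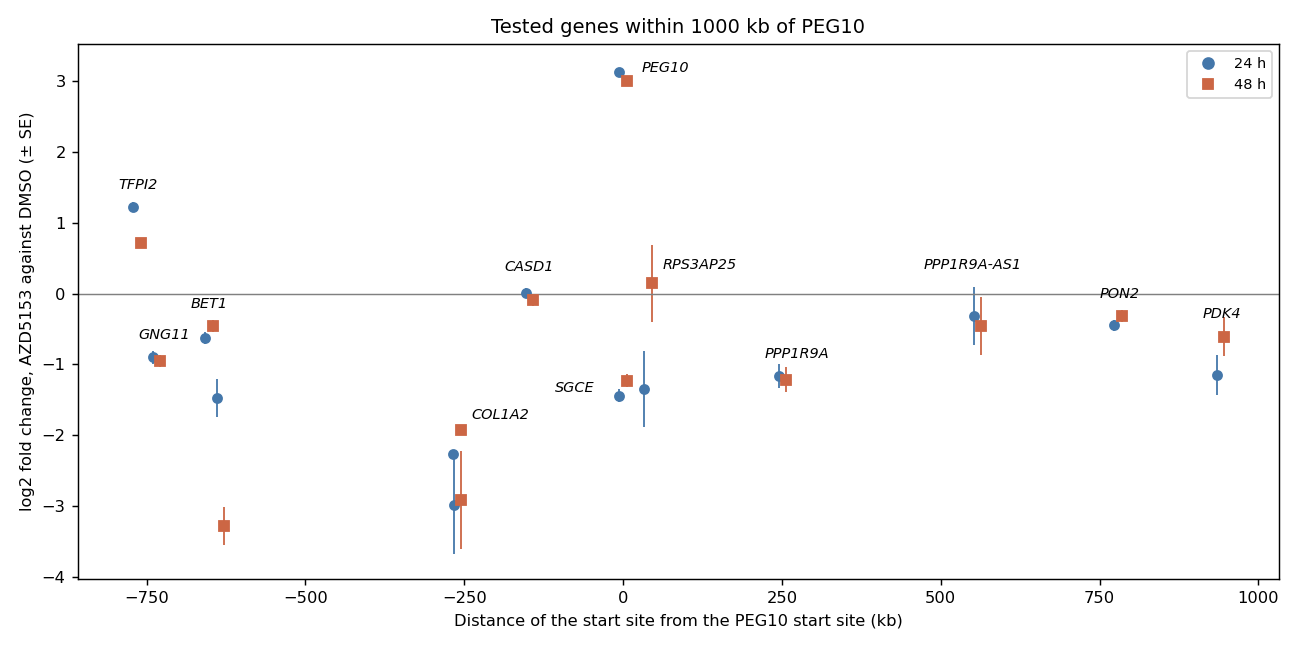
Log2 fold change (± SE) with AZD5153 at 24 hours (blue circles) and 48 hours (orange squares) of *PEG10* and the 13 tested genes that start within 1000 kb of it, against the distance of their start sites in kb (points of both times are shifted slightly apart, and 2 lncRNAs with no symbol carry no name). *PEG10* stands at 3.13 and 3.01, *TFPI2* at 1.23 and 0.72, and *SGCE*, whose start is 0.247 kb away, at -1.44 and -1.23.

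*NDN*, *PLAGL1*, *MEST* and *GRB10* have start regions in the RefSeq promoter table (GRCh38.p14), which held 5 of the 10 genes, *MEG3* being the fifth, with 19 windows in all. *PEG10*, *SGCE*, *PEG3*, *IGF2* and *DLK1* had no entry. For each of the 4 genes, the 250 bases upstream of the annotated start that is richest in CpG and holds at most 30 exon bases of the gene are printed 5′ to 3′ on the strand of the gene, since CpG methylation at start regions carries many imprints. Capitals mark TGCCGC or its reverse complement GCGGCA, the core hexamer bound by the imprint-keeping zinc finger protein ZFP57 when its CpG is methylated.
*NDN*, chr15:23687306-23687555, minus strand: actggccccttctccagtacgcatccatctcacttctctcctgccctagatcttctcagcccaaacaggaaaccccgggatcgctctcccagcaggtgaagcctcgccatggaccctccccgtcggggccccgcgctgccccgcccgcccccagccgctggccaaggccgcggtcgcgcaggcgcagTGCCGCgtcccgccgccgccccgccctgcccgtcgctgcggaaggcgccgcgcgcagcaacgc
*GRB10*, chr7:50793454-50793703, minus strand: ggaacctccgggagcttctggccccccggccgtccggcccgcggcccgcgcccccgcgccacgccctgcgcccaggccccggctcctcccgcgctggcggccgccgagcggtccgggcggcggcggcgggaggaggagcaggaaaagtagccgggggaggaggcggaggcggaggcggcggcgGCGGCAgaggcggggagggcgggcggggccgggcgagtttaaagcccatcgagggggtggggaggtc
*MEST*, chr7:130491835-130492084, plus strand: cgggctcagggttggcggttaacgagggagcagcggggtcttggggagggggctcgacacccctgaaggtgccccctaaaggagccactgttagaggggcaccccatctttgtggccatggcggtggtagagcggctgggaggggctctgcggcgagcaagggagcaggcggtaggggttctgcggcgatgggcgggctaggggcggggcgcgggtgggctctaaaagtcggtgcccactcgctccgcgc
*PLAGL1*, chr6:144064600-144064849, minus strand: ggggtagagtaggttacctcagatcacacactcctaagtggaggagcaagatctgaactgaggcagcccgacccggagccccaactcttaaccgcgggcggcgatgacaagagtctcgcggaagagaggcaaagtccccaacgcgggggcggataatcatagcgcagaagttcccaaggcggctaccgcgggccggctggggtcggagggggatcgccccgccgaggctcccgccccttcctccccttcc
The windows hold 30, 37, 20 and 21 CpG respectively, where the median over all 35116 windows of the same length is 11 and 32.4% have at least 20. The hexamer occurs 1 time each in the windows of *NDN* and *GRB10*, and in 12.7% of all windows. Of all 19 windows of the 5 genes, 7 hold it, but windows of 1 gene can overlap, as the 3 of *MEG3* do, so this is not a count of separate sites. Among those not printed, a *MEST* window at chr7:130486097-130486346 has 20 CpG and 1 hexamer, with 176 exon bases, and a *GRB10* window at chr7:50792875-50793124 has 40 CpG and no hexamer, with 95 exon bases. A further *PLAGL1* window, not printed, at chr6:144008260-144008509, has 32 CpG and 2 hexamers, and 171 of its bases are exon bases of the gene. Another *GRB10* window, at chr7:50782897-50783146 and not printed, has 19 CpG and no hexamer, with 14 exon bases. The printed windows were picked by their CpG number, and whether they lie in the regions that carry the imprints was not checked. These letters are a description and show neither methylation nor binding, which were not measured here.

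*NDN* (ENSG00000182636, chromosome 15 from 23685400 to 23687305, minus strand) encodes necdin, a MAGE family protein that restrains cell growth and helps neurons differentiate, expressed from the paternal copy in the Prader-Willi region. In DMSO it had 626, 825 and 739 normalized counts at the first time and 794, 749 and 648 at the second. With AZD5153 it had 1029.7, 1200.0 and 1005 at 24 hours and 1198, 1294 and 1111 at 48 hours. The groups did not overlap at either time, and the log2 fold changes were 0.57 ± 0.11 at 24 hours and 0.72 ± 0.11 at 48 hours. The DMSO means at both times were nearly equal (729.9 and 730.2), and the change over time in DMSO (0.00 ± 0.11, limma adjusted p = 0.98), the change in AZD5153 (0.16 ± 0.11, adjusted p = 0.29) and the difference between the AZD5153 effects (0.15 ± 0.15, adjusted p = 0.5) did not pass the threshold. Leaving out replicate 1 of DMSO at 24 hours gave *NDN* a 24-hour log2 fold change of 0.461.

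*PLAGL1* (ENSG00000118495, chromosome 6 from 143940300 to 144064599, minus strand) encodes a zinc finger transcription factor that can halt the cell cycle and is expressed from the paternal copy, and its overexpression causes transient neonatal diabetes. It had 571, 539 and 555 normalized counts in DMSO and 1077, 1027 and 1029 with AZD5153 at 24 hours. At 48 hours it had 580.1, 598 and 595 in DMSO and 786, 864 and 881 with AZD5153. The AZD5153 libraries were higher at both times, with log2 fold changes of 0.91 ± 0.07 and 0.51 ± 0.07. The effect was smaller at 48 than at 24 hours, by 0.40 ± 0.09 on the log2 scale (a difference of -0.40, limma adjusted p = 0.0061). This came with a fall within AZD5153 from 24 to 48 hours (-0.31 ± 0.07, adjusted p = 0.0024), while the change in DMSO was 0.09 ± 0.07 (adjusted p = 0.32). *HYMAI*, the paternally expressed noncoding RNA that starts within *PLAGL1* and shares 4.51% of its exon bases, had 15 reads over the 12 libraries.

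*MEST* (ENSG00000106484, chromosome 7 from 130486171 to 130506465, plus strand) encodes a protein of the alpha/beta hydrolase fold and is expressed from the paternal copy. It had 5728, 5879 and 5634 normalized counts in DMSO at 24 hours and 3265, 3289 and 3421 with AZD5153. At 48 hours it had 3949, 4049.7 and 3750.0 in DMSO and 3908, 4010.3 and 4008 with AZD5153. The groups were apart at 24 hours, with lower AZD5153 values (-0.79 ± 0.05), and overlapped at 48 hours (0.02 ± 0.05). The difference between the AZD5153 effects was 0.81 ± 0.06 (limma adjusted p = 6.4e-07). Both groups moved over time: *MEST* fell by 0.55 ± 0.05 in DMSO (adjusted p = 4e-07) and rose by 0.26 ± 0.05 in AZD5153 (adjusted p = 0.00048). With libraries scaled to equal totals, the 48-hour value of *MEST* was -0.15 and was called lower, which made the chosen genes 4 higher and 3 lower at that time, so its sign and its call at 48 hours depend on the scaling. Of the exon bases of *MEST*, 27.6% are shared with genes on the opposite strand, among them *COPG2* (228 bases), and with 2 genes with means of at most 6.34 normalized counts.

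*GRB10* (ENSG00000106070, chromosome 7 from 50590063 to 50793462, minus strand) encodes an adaptor that binds the insulin and IGF1 receptors and dampens their signal. In humans it is expressed from both copies in most tissues, with imprinting that depends on the isoform and the tissue, such as placenta and brain. It had 4379, 4906 and 5001 normalized counts in DMSO and 2743, 2701 and 2688 with AZD5153 at 24 hours, and 6784, 6223 and 6219 against 3479, 3351 and 3369 at 48 hours. Every AZD5153 library was lower, with log2 fold changes of -0.81 ± 0.05 and -0.91 ± 0.05. *GRB10* rose over time in both treatments, by 0.43 ± 0.05 in DMSO (limma adjusted p = 2.7e-05) and by 0.33 ± 0.05 in AZD5153 (adjusted p = 0.00034), and the difference between the AZD5153 effects was -0.10 ± 0.08 (adjusted p = 0.36). No exon base of *GRB10* or of *NDN* is shared with another annotated gene.

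*PEG3* (ENSG00000198300, chromosome 19 from 56810077 to 56840728, minus strand), a paternally expressed zinc finger gene that is strong in brain and placenta, was barely read, with 211 reads over all 12 libraries. It had 11.3, 8.54 and 15.2 normalized counts in DMSO and 26.8, 19.5 and 19.6 with AZD5153 at 24 hours, and 6.31, 2.66 and 15.1 against 43.8, 19.6 and 23.1 at 48 hours. The groups did not overlap, with log2 fold changes of 0.88 ± 0.49 and 1.90 ± 0.49. These errors were the largest among the 7 tested genes, and the 48-hour value ranged from 1.37 to 2.44 as single libraries were left out. Neither the change in DMSO (-0.71 ± 0.49, limma adjusted p = 0.28), the change in AZD5153 (0.31 ± 0.49, adjusted p = 0.68) nor the difference between effects (1.02 ± 0.69, adjusted p = 0.31) passed the threshold. Of its exon bases 50.9% are shared with other genes, *ZIM2* on the same strand and an antisense gene, whose own means were at most 2.14 normalized counts. The neighbours *MIMT1* and *USP29* had 3 reads and none.

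*MEG3* (ENSG00000214548, chromosome 14 from 100779410 to 100861031), a maternally expressed noncoding RNA, had 1 read in replicate 3 of AZD5153 at 48 hours and none in the other libraries. *DLK1* (ENSG00000185559, chromosome 14 from 100725705 to 100738224), a paternally expressed Notch-like membrane protein of the same cluster, and *IGF2* (ENSG00000167244, chromosome 11 from 2129112 to 2158391), the paternally expressed fetal growth factor, were at 0 in every library. A count of 0 allows up to 3 reads, a share of up to 1.1e-05% to 1.9e-05% of the reads of a library. Readthrough and antisense genes that share 44.4% of the exon bases of *IGF2* were at 0 as well. Reads from shared bases could have been given to no gene, so this floor covers only reads that the counting assigned. In the same clusters, *MEG8*, *MEG9* and *DIO3* beside *DLK1*, and *IGF2-AS* and *INS-IGF2* beside *IGF2*, had no read, and *H19* had 1.

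Over the 7 tested genes, 3 were called higher and 3 lower at 24 hours, where 68.5% of all tested genes were called, and 4 higher and 2 lower at 48 hours, where 67.0% were called. The libraries of both treatments did not overlap for all 7 genes at 24 hours and for 6 at 48 hours, against 68.8% and 74.7% of all tested genes (higher with AZD5153 in 34.0% and 37.5%, lower in 34.8% and 37.2%). As these genes were chosen with this contrast known, nothing is read from those counts. The difference between AZD5153 effects was called for *MEST* and *PLAGL1*, 2 of 7 genes, against 24.5% of all genes (14.4% higher and 10.1% lower). This difference and the change over time in AZD5153 use AZD5153 values known at the choice. Nothing is read from their counts either. Change over time in DMSO was called for *MEST* and *GRB10* (2 of 7, against 35.7% of all genes, 16.4% rising and 19.3% falling), and change over time in AZD5153 for *SGCE*, *MEST*, *PLAGL1* and *GRB10* (4 of 7, against 29.7% of all genes, 15.8% rising and 13.8% falling).

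Levels between genes were compared as normalized counts per kilobase of annotated exon. In DMSO at 24 hours the order was *PEG10* (2379 ± 214), *MEST* (1206 ± 25.9), *GRB10* (486 ± 34.2), *NDN* (383 ± 52.5), *PLAGL1* (86.6 ± 2.55), *SGCE* (40.8 ± 3.64) and *PEG3* (1.19 ± 0.34). No neighbours in that order overlapped in their libraries, with *GRB10* (447 to 511) and *NDN* (328 to 433) the closest. The same order held in DMSO at 48 hours, from 2375 ± 38.3 for *PEG10* to 0.822 ± 0.656 for *PEG3*. With AZD5153 *NDN* (566 ± 55.7 at 24 hours, 630.1 ± 48.1 at 48 hours) stood above *GRB10* (277 ± 2.95 and 347 ± 7.07), and the libraries of both genes did not overlap at either time. *PEG10* stood above *MEST*, the next gene, at 2379 against 1206 per kilobase in DMSO and at 20780 against 698 with AZD5153 at 24 hours. The exon length counts every annotated isoform, so a gene with many unused exons is placed too low.

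Across the 12 libraries, the log2 values of *PLAGL1* (Pearson r = 0.954) and *NDN* (0.905) went with those of *PEG10*, those of *SGCE* (-0.975) and *GRB10* (-0.918) went against them, and *PEG3* (0.751) and *MEST* (-0.667) followed less closely. These libraries fall into 2 treatment clusters, so the values mostly repeat the AZD5153 contrast and carry no p-value. Among 10857 named genes whose mean reached 100 normalized counts, the 5 most like *PEG10* were *DOP1B* (r = 0.9984), *EPB41L5* (0.9983), *CHCHD7* (0.9983), *EXOC6B* (0.9982) and *ABCB1* (0.9981). *ABCB1*, which encodes the drug efflux pump P-glycoprotein, had mean normalized counts of 156 in DMSO and 1296 with AZD5153 at the first time and of 157 and 1275 at the second. Correlations above 0.99 were shared by 106 genes, so this likeness does not single out these 5.

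To see how other imprinted genes behaved, a list of 52 was compared, of which 51 were found by symbol. The list was drawn up with earlier results of these data known. Of those, 10 had no read, 13 were read but under the minimum mean, and 28 were tested. At 24 hours 17 rose and 6 fell (limma), against 33.9% and 34.6% of all tested genes, with a median log2 fold change of 0.58 where that of all genes was 0.00. At 48 hours 13 rose and 4 fell, against 33.1% and 33.9%, with a median of 0.40. Scaling to equal totals, which lowers the median of all genes by 0.12 at 24 hours (-0.12) and by 0.17 at 48 hours (-0.17), gave 15 higher and 10 lower at 24 hours and 13 higher and 7 lower at 48 hours. Under that scaling 27.7% of all genes were called higher and 40.4% lower at 24 hours, and 24.9% and 41.8% at 48 hours. Among the 12 tested genes described as paternally expressed, 9 rose and 2 fell at 24 hours and 6 rose and 1 fell at 48 hours. Among the 10 described as maternally expressed, 5 rose and 3 fell at 24 hours and 4 rose and 3 fell at 48 hours. No test of paternal against maternal genes was made.

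In the cluster of *NDN* on chromosome 15, *SNHG14*, the long noncoding host of small nucleolar RNAs that runs against *UBE3A*, had 525, 490.4 and 424 normalized counts in DMSO and 999, 956 and 1012 with AZD5153 at 24 hours (1.05 ± 0.09, limma adjusted p = 6.4e-08). Its log2 fold change was 0.75 ± 0.09 at 48 hours (adjusted p = 2.9e-06). *MKRN3*, a ubiquitin ligase that holds back puberty, rose at 24 hours (0.56 ± 0.10, adjusted p = 7.8e-05), from 401 to 459.9 counts in DMSO to 579 to 664 with AZD5153. At 48 hours it had -0.00 ± 0.10 (adjusted p = 0.99), a value whose sign turns with the normalization factors. *SNRPN*, which encodes a splicing protein, had 5.64 to 8.54 counts in DMSO and 19.6 to 25.6 with AZD5153 at 24 hours (1.64 ± 0.44, adjusted p = 0.0035) and did not pass at 48 hours (0.40 ± 0.44, adjusted p = 0.43). Of its exon bases 43.9% are shared with genes on the same strand, so reads from those bases could have been left out. *UBE3A*, the ubiquitin ligase of Angelman syndrome, shares 9.85% of its exon bases with other genes, most of them with *SNHG14* on the opposite strand. It did not pass at either time (-0.06 ± 0.07, adjusted p = 0.44, and 0.14 ± 0.07, adjusted p = 0.077), and its sign at 48 hours turned under equal totals. *ATP10A*, a phospholipid flippase, fell from 649, 709.6 and 825 counts to 97.9, 147 and 126 at 24 hours (-2.56 ± 0.14, adjusted p = 2.4e-10), with -2.25 ± 0.14 at 48 hours (adjusted p = 1.1e-09). Among the tested genes, *SNHG14*, *MKRN3* and *SNRPN*, which are paternally expressed, were thus higher at 24 hours, and *ATP10A* was lower. *MAGEL2* and *SNURF* were read but under the minimum mean, and *NPAP1* had no read. *MAGEL2* was lower with AZD5153 at 48 hours, with 11.7, 9.75 and 10.8 counts in DMSO against 3.65, 4.35 and 3.42. The groups overlapped for *MAGEL2* at 24 hours and for *SNURF* at both times.

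In the cluster of *MEST* on chromosome 7, *CPA4*, a carboxypeptidase, had 2592, 2622 and 2560.5 normalized counts in DMSO and 5946, 5929 and 5764 with AZD5153 at 24 hours (1.18 ± 0.04, limma adjusted p = 2.1e-12). It rose by 1.01 ± 0.04 at 48 hours (adjusted p = 1.2e-11). *KLF14*, a maternally expressed transcription factor of fat tissue, rose from 0 to 4.51 counts to 22.8 to 36.9 at 24 hours (3.58 ± 0.56, adjusted p = 3.3e-05) and from 5.4 to 15.1 counts to 26.5 to 46.7 at 48 hours (1.80 ± 0.56, adjusted p = 0.0097), values that rest on few reads. *COPG2*, a coat protein of transport vesicles that overlaps *MEST* on the opposite strand, did not pass at either time (-0.22 ± 0.12, adjusted p = 0.11, and 0.13 ± 0.12, adjusted p = 0.37), and its sign at 48 hours turned under equal totals. *MESTIT1* had 31 reads in all.

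In the cluster of *IGF2* on chromosome 11, where *IGF2* had no read and *H19* had 1, genes of the neighbouring *KCNQ1* domain were read. *KCNQ1OT1*, the paternally expressed noncoding RNA that silences that domain in cis, had 56.4, 44.1 and 70.4 normalized counts in DMSO and 268, 317 and 315 with AZD5153 at 24 hours (2.40 ± 0.19, limma adjusted p = 2e-08). At 48 hours it had 60.3, 86.9 and 98.3 against 217, 267 and 219 (1.53 ± 0.19, adjusted p = 3.7e-06). *PHLDA2*, a maternally expressed brake on placental growth, had 134, 399 and 502 counts in DMSO and 845, 717 and 641 with AZD5153 at 24 hours (1.28 ± 0.31, adjusted p = 0.0019). Its lowest value is that of the library that stood apart, and without it the change was 0.705 (adjusted p = 2.7e-06). At 48 hours *PHLDA2* had 0.40 ± 0.31 (adjusted p = 0.28), and without that library 0.399 (adjusted p = 0.00074). *SLC22A18*, an organic cation transporter, fell by 0.71 ± 0.28 (adjusted p = 0.038) and by 0.86 ± 0.28 (adjusted p = 0.014). Its 24-hour call was lost without DMSO replicate 2 or 3 or AZD5153 replicate 1 or 2 at 24 hours (adjusted p = 0.087 to 0.18), and its 48-hour call without AZD5153 replicate 1 at 48 hours (adjusted p = 0.071). *CDKN1C* and *KCNQ1*, maternally expressed genes of the domain, had 19 and 2 reads in all.

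*RTL1*, a retrotransposon-derived gene of the *DLK1* cluster, had a mean under the minimum and was not tested. It had 10.1, 6.41 and 11.6 normalized counts in DMSO at 24 hours and 10.8, 16.8 and 10.8 at 48 hours, against 0, 0 and 0 and 0.912, 1.09 and 0 with AZD5153. It shares 32.8% of its exon bases with genes on the opposite strand.

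Away from the clusters of the chosen genes, *DIRAS3*, a small GTPase that suppresses growth, had 9.02, 8.54 and 6.24 normalized counts in DMSO and 59.0, 48.1 and 40.4 with AZD5153 at 24 hours (2.49 ± 0.24, limma adjusted p = 1.6e-07). At 48 hours it had 27.9, 23.9 and 30.2 against 125, 138 and 121 (2.19 ± 0.24, adjusted p = 6.7e-07). *IGF2R*, the receptor that clears IGF2 and sorts lysosomal enzymes, had 9000.2, 8841 and 8889 counts in DMSO and 17037, 17351 and 17479.6 with AZD5153 at 24 hours (0.96 ± 0.04, adjusted p = 3.1e-12) and rose by 0.75 ± 0.04 at 48 hours (adjusted p = 4.8e-11). *ZDBF2*, which is tied to feeding and growth in mice, rose by 1.10 ± 0.08 (adjusted p = 2.5e-09) and 0.79 ± 0.08 (adjusted p = 1.2e-07). *INPP5F*, an inositol phosphatase, rose by 0.89 ± 0.08 (adjusted p = 5.8e-08) and 0.79 ± 0.08 (adjusted p = 2.2e-07). *NAP1L5* rose by 0.58 ± 0.09 and 0.71 ± 0.09 (adjusted p = 5e-05 and 6.1e-06), and *BLCAP* by 0.59 ± 0.09 and 0.56 ± 0.09 (adjusted p = 1.8e-05 and 2.9e-05). *FAM50B* fell by 0.74 ± 0.14 (adjusted p = 0.00029) and by 1.20 ± 0.14 (adjusted p = 1.9e-06).

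**Figure D3:**
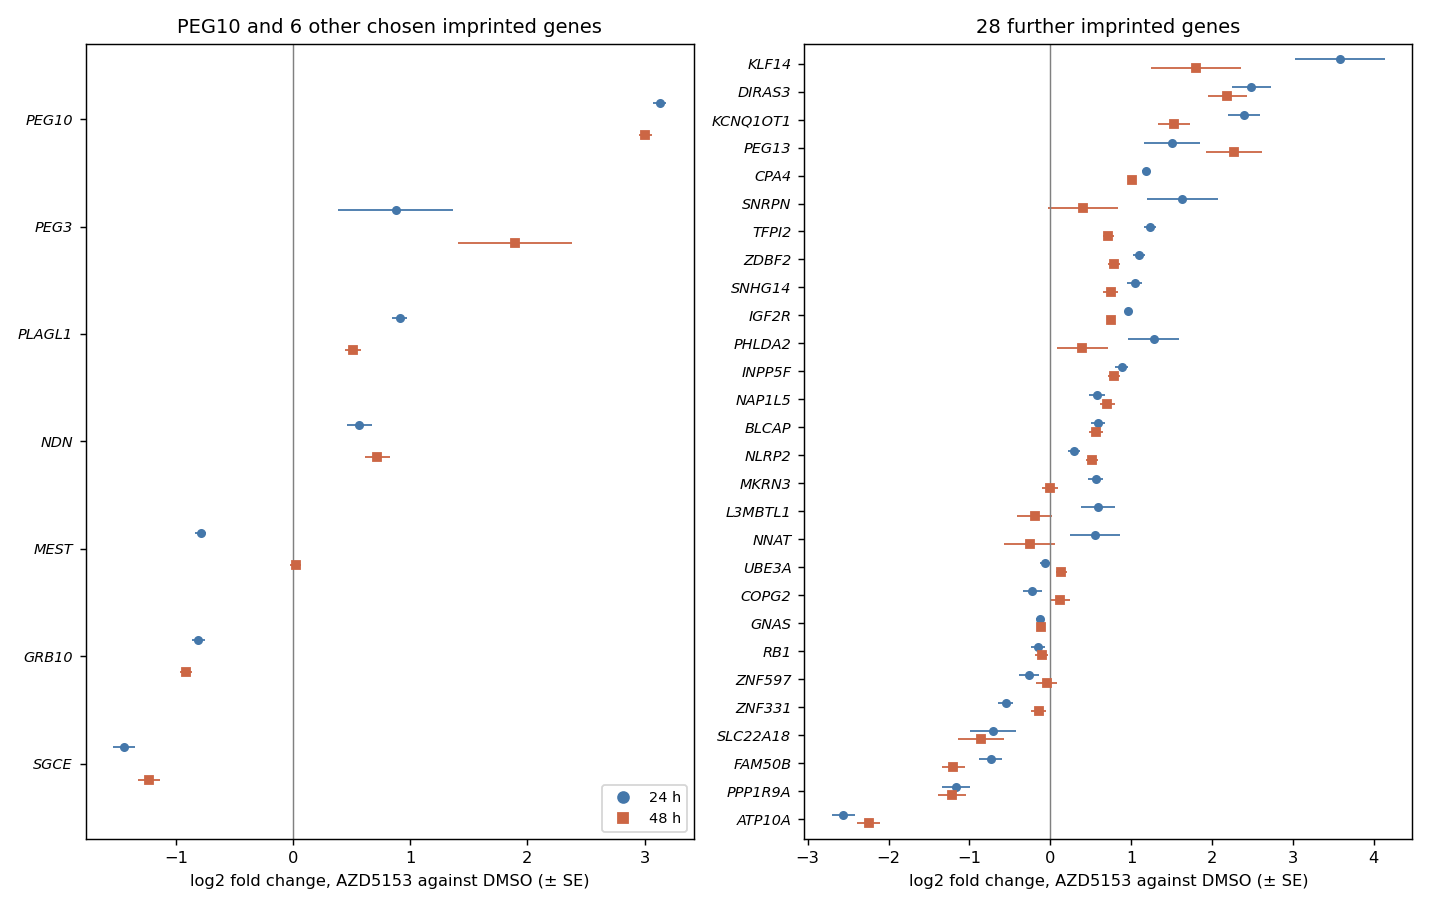
Log2 fold change (± SE) with AZD5153 against DMSO at 24 hours (blue circles) and 48 hours (orange squares), for the 7 tested genes chosen here (left) and 28 further imprinted genes (right), each panel in order of the mean of both times and on its own horizontal scale. *PEG10* stands at the top left with 3.13 and 3.01, and the further genes run from *ATP10A* (-2.56 and -2.25) to *KLF14* (3.58 and 1.80).

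*PEG10* belongs to a family of genes taken over from the same kind of retrotransposon, and 8 of 11 listed relatives were tested. At each time 6 rose and 2 fell, where 33.9% of all tested genes rose and 34.6% fell at 24 hours and 33.1% and 33.9% at 48 hours. Under scaling to equal totals 5 rose and 2 fell at each time, against 27.7% and 40.4% of all genes at 24 hours and 24.9% and 41.8% at 48 hours. *RTL5* on chromosome X had 162, 202 and 204 normalized counts in DMSO and 913, 905 and 902 with AZD5153 at 24 hours (2.26 ± 0.09, limma adjusted p = 6.4e-12), and 239.6, 253 and 247 against 1249, 1457 and 1336 at 48 hours (2.44 ± 0.09, adjusted p = 2.8e-12). *RTL8C* rose by 1.32 ± 0.13 (adjusted p = 1.4e-07) and 1.42 ± 0.13 (adjusted p = 6e-08), and at 24 hours by 1.104 without replicate 1 of DMSO. *RTL8C*, *RTL8A* and *RTL8B* are near-identical copies, so the division of reads among them is uncertain. All of these copies were among the 6 that rose, so that count does not stand for 6 separate genes. *RTL6* fell from 1276, 1387 and 1338 counts to 421, 423 and 377 at 24 hours (-1.71 ± 0.07, adjusted p = 1e-11), with -2.21 ± 0.07 at 48 hours (adjusted p = 5.6e-13). *RTL3*, which is named because of its values, was under the minimum mean, with 10.8 to 28.2 counts in the DMSO libraries and no read in any AZD5153 library. *RTL1*, described above, was also under the minimum mean and lower with AZD5153 at both times. The counts of relatives that rose and fell thus leave out both *RTL3* and *RTL1*.

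**Figure D4:**
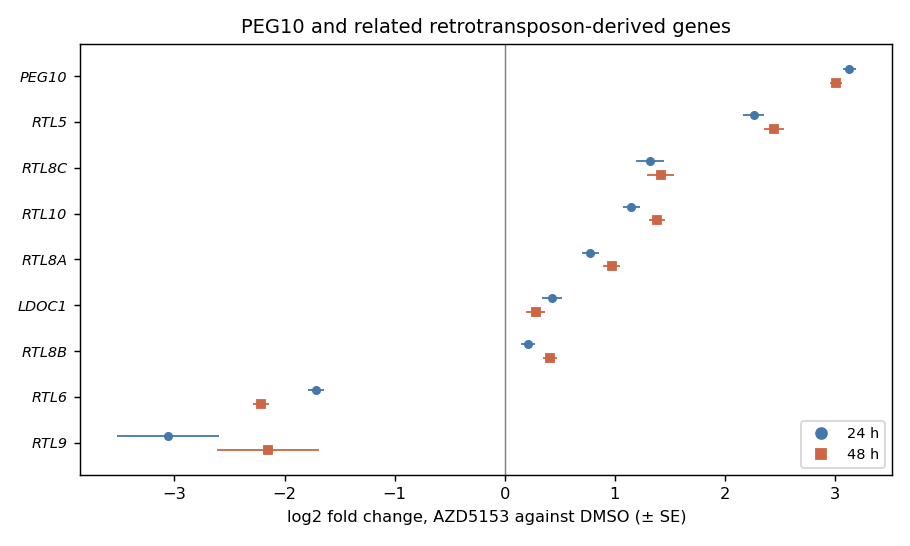
Log2 fold change (± SE) with AZD5153 against DMSO at 24 hours (blue circles) and 48 hours (orange squares) for *PEG10* and the 8 tested genes derived from the same kind of retrotransposon. *PEG10* (3.13 and 3.01) and *RTL5* (2.26 and 2.44) stand highest, and *RTL6* and *RTL9* lie below 0.

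Partners and relatives of the other chosen genes were taken from lists by role, and each count is to be read beside the 68.5% of all tested genes called at 24 hours (33.9% higher, 34.6% lower) and the 67.0% called at 48 hours (33.1% higher, 33.9% lower). Of 14 genes of the sarcoglycan and dystrophin complex, in which the *SGCE* protein sits, 11 were tested, and 3 rose and 5 fell at 24 hours (72.7% called), with 5 and 5 at 48 hours (90.9%). *DAG1*, which encodes dystroglycan, the core of the complex, rose by 0.75 ± 0.05 (limma adjusted p = 5.1e-09) and 1.00 ± 0.05 (adjusted p = 1.7e-10). *DTNB*, which encodes beta-dystrobrevin, rose by 0.95 ± 0.12 (adjusted p = 3.3e-06) and 1.40 ± 0.12 (adjusted p = 3.7e-08). *SNTB1*, a syntrophin that anchors signaling proteins to dystrophin, fell from 443, 434 and 514 normalized counts to 32.2, 23.5 and 15.9 at 24 hours (-4.27 ± 0.24, adjusted p = 2.2e-10), with -4.07 ± 0.24 at 48 hours (adjusted p = 4e-10). *SSPN*, which encodes sarcospan, fell by 2.06 ± 0.26 (adjusted p = 4.1e-06) and by 1.31 ± 0.26 (adjusted p = 0.00039).

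Of 9 relatives of *NDN* in the type II MAGE family, 5 were tested, and 2 rose and 2 fell at 24 hours, with 1 and 2 at 48 hours (80.0% and 60.0% called, against 68.5% and 67.0% of all genes). Under equal totals none rose and 2 fell at each time, where 27.7% and 24.9% of all genes rose and 40.4% and 41.8% fell. *MAGEE1* rose by 0.41 ± 0.13 (limma adjusted p = 0.0088) and 0.42 ± 0.13 (adjusted p = 0.0074), calls that were lost under equal totals (0.288 and 0.252). *MAGED2* fell by 0.42 ± 0.10 (adjusted p = 0.0014) and by 0.64 ± 0.10 (adjusted p = 2.8e-05). *MAGED1* fell by 0.13 ± 0.05 (adjusted p = 0.03) and by 0.15 ± 0.05 (adjusted p = 0.013). Its 24-hour call was lost without DMSO replicate 2 or 3 or AZD5153 replicate 1 or 3 at 24 hours (adjusted p = 0.068 to 0.13), and its 48-hour call without DMSO replicate 1 or AZD5153 replicate 3 at 48 hours (adjusted p = 0.056 and 0.057). Of 2 listed relatives of *PLAGL1*, 2 were tested, and 1 rose and 1 fell at 24 hours, with 0 and 1 at 48 hours. That is 100.0% and 50.0% called, against 68.5% and 67.0% of all genes. Under equal totals 0 rose and 2 fell at 48 hours. *PLAGL2*, a growth-promoting relative of *PLAGL1*, fell by 0.50 ± 0.08 (adjusted p = 3.7e-05) and by 0.40 ± 0.08 (adjusted p = 0.00028). *GRB14*, an adaptor of the same family as *GRB10*, had 84.7 to 100.3 counts in DMSO and 151 to 204 with AZD5153 at 24 hours (0.87 ± 0.17, adjusted p = 0.00025) and rose by 0.97 ± 0.17 at 48 hours (adjusted p = 8.2e-05), where *GRB10* had values below 0.

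Of 15 genes of the insulin-like growth factor system, on which *IGF2*, *IGF2R* and *GRB10* act, 12 were tested, and 5 rose and 5 fell at each time (83.3% called, against 68.5% and 67.0% of all genes). *IRS2*, a substrate that passes on the receptor signal, rose by 1.10 ± 0.11 (limma adjusted p = 3.9e-07) and 0.74 ± 0.11 (adjusted p = 3.2e-05). The binding protein gene *IGFBP4* fell from 9864, 13233 and 14669 normalized counts to 3233, 3214 and 2920.4 at 24 hours (-1.99 ± 0.10, adjusted p = 1e-10) and by 2.85 ± 0.10 at 48 hours (adjusted p = 1.6e-12). Without replicate 1 of DMSO the 24-hour value of *IGFBP4* was -2.159. *IGFBP5* fell by 2.94 ± 0.32 (adjusted p = 5.8e-07) and by 2.04 ± 0.32 (adjusted p = 3.3e-05). Of 11 Notch ligands, receptors and targets, listed because *DLK1* resembles a Notch ligand, 7 were tested, and 2 rose and 4 fell at each time (85.7% called, against 68.5% and 67.0% of all genes). *NOTCH1* rose by 0.80 ± 0.10 (adjusted p = 4.5e-06) and 0.65 ± 0.10 (adjusted p = 4.3e-05), and *NOTCH3* fell by 2.53 ± 0.11 (adjusted p = 8.3e-12) and by 2.05 ± 0.11 (adjusted p = 1e-10). The Notch target *HES1* fell from 127, 166 and 153 counts to 21.5, 13.3 and 11.02 at 24 hours (-3.25 ± 0.32, adjusted p = 1.8e-07) and from 251, 191 and 218 to 1.82, 3.26 and 0.856 at 48 hours (adjusted p = 6.7e-11), where the AZD5153 libraries held 2, 3 and 1 reads and the size of the fold is not measured.

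Of 15 genes that keep or read imprints, 10 were tested, and 2 rose and 6 fell at 24 hours, with 3 and 5 at 48 hours (80.0% called at each time, against 68.5% and 67.0% of all genes). Under equal totals 3 rose and 7 fell at 48 hours, where 24.9% of all genes rose and 41.8% fell. *ZNF445*, a zinc finger protein that guards imprints in human cells, had 1421, 1352 and 1380.1 normalized counts in DMSO and 2480.4, 2492 and 2543 with AZD5153 at 24 hours (0.86 ± 0.06, limma adjusted p = 1.5e-09) and rose by 0.94 ± 0.06 at 48 hours (adjusted p = 5.4e-10). *TRIM28*, the corepressor that such zinc finger proteins recruit, rose by 0.54 ± 0.07 (adjusted p = 5.2e-06) and 0.83 ± 0.07 (adjusted p = 3.8e-08). *UHRF1*, which brings the maintenance DNA methyltransferase to hemimethylated DNA, fell by 1.85 ± 0.06 (adjusted p = 6e-13) and by 1.33 ± 0.06 (adjusted p = 2.6e-11). *ZNF202*, another zinc finger gene of the list, fell by 0.57 ± 0.09 (adjusted p = 2.5e-05) and by 0.99 ± 0.09 (adjusted p = 4.3e-08). DNA methylation at the imprinted control regions was not measured in these libraries.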

How the data were processed

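RNA-Seq libraries of SF8628 cells were analysed from 1 table of normalized counts. Per the labels and the study's methods, the authors extracted RNA with RNeasy, made NEBNext Ultra II libraries, sequenced paired ends on a NovaSeq, aligned with STAR to hg38, counted with HTSeq and divided the counts by DESeq2 size factors. Versions, the annotation and the strand setting are not given in the sources used here. The deposited signal is thus counts on a library-size scale. Whole reads were recovered from the steps of the deposited values, and 100% of values came out whole within 0.01 reads. The table also holds the authors' own mean, log2 fold changes, errors, test scores and p-values, which were not used.

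For genes whose mean reached 10 normalized counts, limma (3.58.1, R 4.3.3) was fitted to log2(normalized count + 1) of the deposited values with 4 group means (8 residual degrees of freedom) and a trend in the variance, with Benjamini-Hochberg adjustment over 15599 genes. A fold change on this scale understates the change of low genes. Depth was 15759148 to 27335220 reads on genes, and intervals and floors cover counting error only. Alternatives were edgeR (4.0.16) and DESeq2 (1.42.0) on the recovered reads, other pseudocounts (0.5 and 10), other minimum means (none and 100), equal totals, TMM factors, a replicate block, only the groups compared, and leaving out each library. On simulated data for the 24-hour contrast, 82.5% of 200 changed genes were recovered by limma among 15608 genes and 6.25% of its calls were false. For the difference between the effects at both times, 51.5% of 200 were recovered and 1.9% of calls were false. Both sets of rates hold for 200 changed genes, whereas 68.5% of 15599 tested genes were called at 24 hours in the libraries. The accuracy of the calls in the libraries was not tested. Tables and figures were made with Python 3.11.15. Coordinates and exon lengths came from GENCODE 44 (GRCh38), and promoters from RefSeq (GRCh38.p14).

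The genes followed and all lists were chosen with earlier results of these data known. Named were the 10 genes, listed imprinted genes of their clusters, and, among genes whose mean reached 50 and that passed the threshold at both times with no overlap between treatments, up to 6 other imprinted genes and 2 genes of each other list per direction, and the 5 genes most like *PEG10*. Genes named outside this rule are marked as such, apart from cell type markers and *RTL8A*, *RTL8B* and *RTL9*, which are members of a listed family.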

Additional observations from a re-analysis of the deposited data

Results flagged for a closer look

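The effect of AZD5153 at 48 hours minus that at 24 hours, tested by the interaction contrast of the limma fit, passed the threshold for 15 of 49 tested genes (30.6%) among the chosen genes and those named from the lists, where 24.5% of all tested genes passed. Many of the 49 were chosen for their AZD5153 effects at both times, from which this difference is made, so nothing is read from that share. Among the chosen genes, *MEST* had a difference of 0.81 (limma adjusted p = 6.4e-07) and *PLAGL1* of -0.40 (adjusted p = 0.0061). Both p-values use AZD5153 values known when these genes were chosen and are a description only.

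Of the other imprinted genes, the difference was -0.51 for *TFPI2* (limma adjusted p = 0.0018), -0.87 for *KCNQ1OT1* (adjusted p = 0.031), -0.56 for *MKRN3* (adjusted p = 0.0067), -0.30 for *ZDBF2* (adjusted p = 0.049) and -0.20 for *IGF2R* (adjusted p = 0.01). Of all 28 tested genes of that list, 5 had a lower and 1 a higher value at 48 hours (21.4% called, against 24.5% of all genes), the latter being *ZNF331* (0.41, adjusted p = 0.029), which is named for its value here. The calls of *KCNQ1OT1* and *ZDBF2* were lost under some alternatives, with adjusted p up to 0.084 and 0.13.

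In the lists of relatives and partners, *RTL6* had a difference of -0.50 (limma adjusted p = 0.0026), *DAG1* of 0.25 (adjusted p = 0.029), *IGFBP4* of -0.85 (adjusted p = 0.00062), and *NOTCH3* of 0.48 (adjusted p = 0.03). For *HES1* the fitted difference was -3.04 (adjusted p = 0.00018), a number that depends on the pseudocount and does not measure a size, since the AZD5153 libraries at 48 hours held 2, 3 and 1 reads. Among genes that keep or read imprints, *TRIM28* had 0.29 (adjusted p = 0.048), *UHRF1* 0.52 (adjusted p = 0.00051) and *ZNF202* -0.43 (adjusted p = 0.018). The calls of *DAG1*, *NOTCH3*, *TRIM28* and *ZNF202* were lost under some alternatives, with adjusted p up to 0.074, 0.081, 0.12 and 0.054.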

How the results depend on the processing

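Over 22 alternatives, 12 of which left out 1 library each, 1615 values from the leave-outs and 1339 from the others kept their direction and side of the threshold, while 59 and 18 lost a call. Under equal totals the other imprinted genes called lower were 10 at 24 hours and 7 at 48 hours, against 6 and 4, while the share of all genes called lower went from 34.6% to 40.4% and from 33.9% to 41.8%. Signs turned under equal totals at 48 hours for *MEST* (-0.149), *COPG2* (-0.045) and *UBE3A* (-0.033). Signs turned with TMM factors for *MKRN3* at 48 hours (0.015) and for the change over time in DMSO of *PEG10* (-0.004) and *NDN* (-0.001). With single libraries left out, the change over time in DMSO ranged from -0.058 to 0.070 for *PEG10* and from -0.102 to 0.097 for *NDN*, that in AZD5153 from -0.029 to 0.533 for *PEG3*, the 48-hour effect from -0.009 to 0.047 for *MEST* and from -0.079 to 0.049 for *MKRN3*, and the 24-hour effect from -0.109 to 0.027 for *UBE3A*. The cause was not tested. The library that stood apart moved further 24-hour effects by over 0.1, which without it were 4.126 for *KLF14*, -1.021 for *SLC22A18*, -0.081 for *COPG2*, 1.528 for *SNRPN*, 0.694 for *NAP1L5*, 0.471 for *BLCAP*, 2.153 for *RTL5*, 1.092 for *DTNB*, -1.823 for *SSPN*, 0.290 for *MAGEE1*, -0.568 for *MAGED2*, 0.910 for *IRS2*, -3.355 for *HES1*, -2.709 for *NOTCH3* and 0.431 for *TRIM28*, all with the sign and the side of the threshold they had with it.

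Replicate numbers did not pair the libraries, since same-numbered libraries had correlations of -0.151 to 0.036 over 6 pairs. With a replicate block, 5207 genes were called higher and 5319 lower at 24 hours, against 5287 and 5392, and the calls of *ZDBF2* (limma adjusted p = 0.069) and *TRIM28* (adjusted p = 0.057) between the times were lost. Depth limits *PEG3*, *KLF14*, *SNRPN*, *DIRAS3*, *SSPN*, *SNTB1*, *IGFBP5*, *HES1* and *RTL9*. Each of these had at most 37 reads in each library of at least 1 group.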
